A study of Arabidopsis thaliana with 10 samples.

Results

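The 10 genes described here are the Arabidopsis xylem and secondary wall genes VND6, VND7, SND1, NST1, MYB46, CESA4, CESA7, CESA8, XCP1 and XCP2. They were picked by locus identifier out of the 27086 loci quantified in each library, with no expression value in the rule. The choice was, however, made with earlier results of these data known. All 10 identifiers were found in every library. The study profiled RNA from seedlings labelled as mutants of the genes for the AtBMI1 proteins, RING-finger subunits of Polycomb Repressive Complex 1, which keeps developmental genes silent and adds ubiquitin to histone H2A. Its 5 genotypes had 2 libraries each: the atbmi1abc triple mutant, the atbmi1ab strong double mutant (atbmi1ab_strong), the atbmi1b single mutant, the atbmi1a single mutant and the wild type (WT). Every library came from Col-0 seedlings labelled with an age of 10 DAG. The labels name no allele and no batch, and they do not say whether replicate libraries were made from different plants. The p-values below therefore measure only the spread between libraries, and that spread may be technical.

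Water-conducting vessel elements and supporting fibres thicken their walls with cellulose, xylan and lignin, and vessel elements then die and empty themselves. The NAC factor VND7 switches on protoxylem vessel formation and VND6 metaxylem vessel formation, while SND1 and NST1 switch on wall thickening in fibres. These NAC factors activate MYB46, an R2R3 MYB factor that turns on wall synthesis genes. CESA4, CESA7 and CESA8 are the catalytic subunits of the cellulose synthase complex of secondary walls. XCP1 and XCP2 are papain-like cysteine proteases that break down the contents of the dying vessel element.

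The targeted genes did not all follow the labels. AtBMI1A was at 10.3 and 13.7 FPKM (fragments scaled by transcript length and library size) in the libraries labelled atbmi1abc, 7.89 and 9.19 in atbmi1ab_strong and 26.8 and 33.4 in atbmi1a, against 6.91 and 6.08 in WT. AtBMI1B was at 3.89 and 3.64 in the atbmi1abc libraries, 1.7 and 1.91 in atbmi1ab_strong and 0.182 and 0.108 in atbmi1b, against 6.34 and 5.86 in WT. AtBMI1C was at 3.04 and 4.35 FPKM in the atbmi1abc libraries and 3.42 and 3.22 in atbmi1ab_strong, against 0.136 and 0.0456 in WT. AtBMI1A was therefore not lower than in WT in any library whose label carries the a mutation, AtBMI1C was higher than in WT in both libraries whose label carries the c mutation, and genotypes are named below as the libraries are labelled. Correlations between the 2 libraries of a genotype ran from 0.956 to 0.989 on the log2(FPKM + 1) scale. The highest correlation between genotypes was 0.968, for atbmi1a replicate 2 with atbmi1b replicate 1. It was above the 0.956 of the atbmi1a pair. The seedlings' photosynthesis markers, a list of 10 genes, summed to 932 and 968 FPKM in atbmi1abc and 770 and 856 in atbmi1ab_strong, against 36400 and 45800 in WT. Seed storage genes, a list of 9, summed to 103000 and 125000 FPKM in atbmi1abc and 79500 and 94300 in atbmi1ab_strong, against 67.7 and 59.5 in WT. The atbmi1ab_strong sums hold nothing from CRU3 and CRA1, which were listed at 0 in both of its libraries. The atbmi1a replicate 1 library stood apart from replicate 2, at 2950 against 47.1 FPKM for that storage list. Since the RNA came from seedlings and not from sorted cells, fewer xylem cells and less RNA per xylem cell cannot be told apart.

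The sequence before the start of a member is shown for CESA4, XCP1 and XCP2, because known binding elements of the vessel pathway lie in the first pair and because XCP2 is the closest relative of XCP1. Each run is the 250 bases upstream of the annotated start in TAIR10.1, the RefSeq release of the assembly named in the submitters' notes, 5′ to 3′ on the plus strand. They lie at chr5:17714140-17714389 for CESA4, chr4:16810232-16810481 for XCP1 and chr1:7251861-7252110 for XCP2. Capitals mark the tracheary element element (TERE) and the secondary wall MYB element (SMRE).
CESA4: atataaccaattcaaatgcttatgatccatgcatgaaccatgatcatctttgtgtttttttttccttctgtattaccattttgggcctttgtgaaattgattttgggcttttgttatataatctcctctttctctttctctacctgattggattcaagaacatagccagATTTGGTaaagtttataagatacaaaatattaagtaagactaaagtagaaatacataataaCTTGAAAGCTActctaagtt
XCP1: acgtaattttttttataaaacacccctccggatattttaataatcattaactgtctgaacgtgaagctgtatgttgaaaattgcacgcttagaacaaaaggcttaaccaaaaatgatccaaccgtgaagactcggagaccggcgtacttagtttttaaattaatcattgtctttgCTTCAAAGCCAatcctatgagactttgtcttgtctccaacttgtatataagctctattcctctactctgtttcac
XCP2: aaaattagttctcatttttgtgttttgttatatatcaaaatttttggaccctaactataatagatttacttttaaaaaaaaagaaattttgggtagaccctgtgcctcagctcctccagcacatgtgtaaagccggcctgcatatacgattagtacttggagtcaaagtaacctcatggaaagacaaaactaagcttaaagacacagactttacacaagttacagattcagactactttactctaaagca

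TERE reads CTTN followed directly by AAAGCNA and marks many genes that vessel NAC factors activate. It was found in 2 of the 10 members, CESA4 and XCP1, and in 0.368% of the 27443 promoters of the same length (both strands searched). In CESA4 it ends 10 bases before the start and in XCP1 65 bases before it. SMRE, the element MYB46 binds, reads ACCNANN, where the first N is A or T, the second A or C and the last C or T. It was found in VND7 and CESA4, 2 of the 10 members, and in 29.4% of all promoters. Across the 69 genes of the regulator, secondary wall, xylan, lignin and cell death lists described below, 5.8% held TERE and 42% held SMRE. A pair of elements tied to Polycomb recruitment in plants was also searched. The telobox AAACCCTA was in 0 of the 10 members and 4.49% of all promoters, and the repeat GAGAGAGA was in VND7 and CESA7 and 4.91% of all promoters. In VND7 the repeat lies in a longer GA run that holds several overlapping matches. All of these matches describe letters in this window only.

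The vessel switches VND6 and VND7 were expressed at or under 2 FPKM in every library. VND6 (AT5G62380, chromosome 5, 25050152 to 25052054) was listed at 0 in both atbmi1abc libraries. It was at 0.822 and 0.682 FPKM in atbmi1ab_strong, 1.26 and 1.44 in atbmi1b and 1.86 and 0.929 in atbmi1a, against 0.669 and 0.843 in WT. The atbmi1abc libraries were thus below all 8 others, the atbmi1ab_strong libraries overlapped WT, and both single mutants lay above WT. VND7 (AT1G71930, chromosome 1, 27074702 to 27077991) was listed at 0 in atbmi1abc replicate 1 and was at 0.0898 FPKM in replicate 2. Its values were 0.866 and 1.27 in atbmi1ab_strong, 0.679 and 0.768 in atbmi1b and 0.544 and 0.872 in atbmi1a, against 0.441 and 0.37 in WT. WT was the second lowest genotype for VND7, and its libraries did not overlap those of any mutant. Differences were tested with limma on log2(FPKM + 1), leaving out loci whose mean over the 10 libraries was under 1 FPKM, and a locus was called at a Benjamini-Hochberg adjusted p under 0.05. VND6 and VND7 had means under that minimum and were not tested. With no minimum, limma's adjusted p for VND6 was 0.00405 in atbmi1abc against WT and 0.00665 in atbmi1abc against atbmi1ab_strong. On the same terms VND7 had a log2 fold change of -0.43 (adjusted p = 0.0199) in atbmi1abc and 0.55 (adjusted p = 0.00798) in atbmi1ab_strong, each against WT.

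The fibre switches were close to silent in all genotypes. SND1 (AT1G32770, chromosome 1, 11865229 to 11867154) was listed at 0 in 9 libraries and at 0.0749 FPKM in atbmi1a replicate 1. NST1 (AT2G46770, chromosome 2, 19220725 to 19222916) was listed at 0 in 8 libraries, at 0.119 FPKM in atbmi1ab_strong replicate 1 and at 0.0509 in atbmi1b replicate 1. Neither gene was tested, and no difference was detectable at these levels. These pairs are not near-identical copies: the coding sequences of SND1 and NST1 were 66.3% identical and those of VND6 and VND7 64.6%, with no shared run beyond 22 bases.

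**Figure D1:**
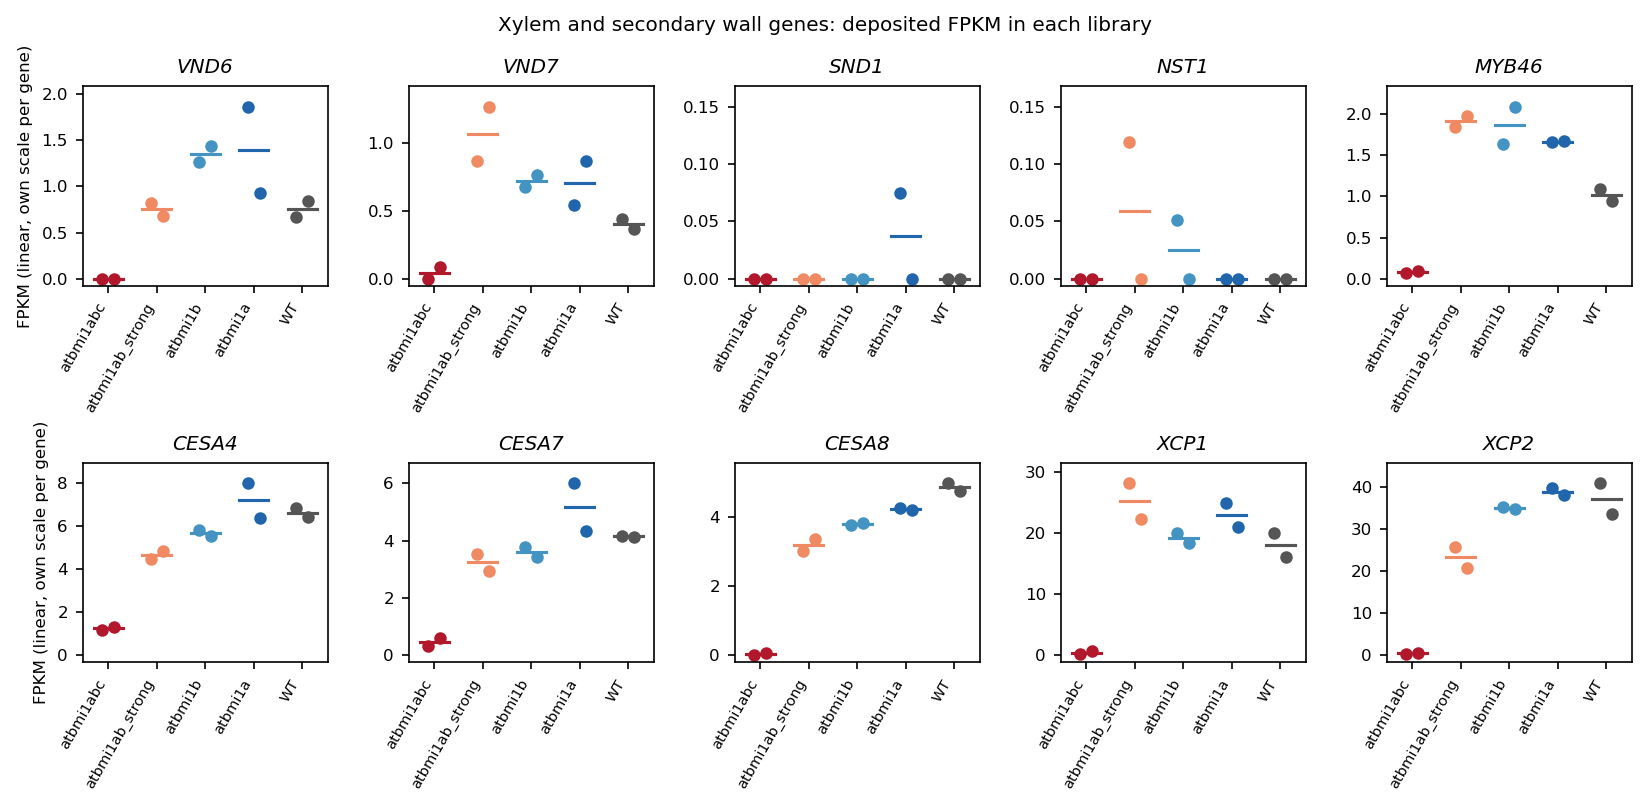
Deposited FPKM of the 10 genes (vertical axes, linear, each gene on its own scale) in the libraries labelled atbmi1abc, atbmi1ab_strong, atbmi1b, atbmi1a and WT; points are libraries and bars the mean of 2. The atbmi1abc points lie at or under 1.34 FPKM for every gene, and for 8 genes, all but SND1 and NST1, they lie below all other points.

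MYB46 fell in the triple mutant and rose in the double mutant and in atbmi1b. The gene (AT5G12870, chromosome 5, 4062666 to 4065075) was at 0.0759 and 0.0952 FPKM in atbmi1abc, or about 1.1 fragments in each library as estimated from the smallest FPKM steps. It reached 1.84 and 1.98 in atbmi1ab_strong, 1.64 and 2.09 in atbmi1b and 1.66 and 1.67 in atbmi1a, against 1.09 and 0.943 in WT. The libraries of the other mutants all lay above WT, which lay above atbmi1abc. Those of atbmi1b overlapped both other mutants, and those of atbmi1ab_strong lay above those of atbmi1a. In limma MYB46 fell in atbmi1abc against WT, with a log2 fold change of -0.89 ± 0.14 (SE, adjusted p = 0.000578). Against WT it rose in atbmi1ab_strong, by 0.53 ± 0.14 on the log2 scale (adjusted p = 0.0113), and in atbmi1b, by 0.50 ± 0.14 (adjusted p = 0.0209). The value in atbmi1a was 0.40 ± 0.14 with an adjusted p of 0.0576. These fold changes are differences of log2(FPKM + 1), which understate changes of low genes. The calls that MYB46 was higher rested on single libraries: without WT replicate 2 the adjusted p was 0.0569 in atbmi1ab_strong and 0.0951 in atbmi1b, without atbmi1ab_strong replicate 2 it was 0.0501, and without atbmi1b replicate 2 it was 0.118.

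All 3 cellulose synthase genes of the secondary wall fell in the triple mutant and differed less in the other mutants. CESA4 (AT5G44030, chromosome 5, 17714390 to 17719723) was at 1.16 and 1.34 FPKM in atbmi1abc, 4.49 and 4.84 in atbmi1ab_strong, 5.84 and 5.54 in atbmi1b and 8.0 and 6.4 in atbmi1a, against 6.86 and 6.41 in WT. CESA7 (AT5G17420, chromosome 5, 5736630 to 5741500) was at 0.334 and 0.614 FPKM in atbmi1abc, 3.54 and 2.96 in atbmi1ab_strong, 3.77 and 3.43 in atbmi1b and 6.01 and 4.33 in atbmi1a, against 4.17 and 4.14 in WT. CESA8 (AT4G18780, chromosome 4, 10312624 to 10316886) was at 0.0231 and 0.0579 FPKM in atbmi1abc, 3.02 and 3.37 in atbmi1ab_strong, 3.77 and 3.81 in atbmi1b and 4.24 and 4.19 in atbmi1a, against 4.97 and 4.73 in WT. For each of the 3 genes the order of means from the lowest began with atbmi1abc, atbmi1ab_strong and atbmi1b. The atbmi1abc libraries overlapped no others for any of the 3. CESA8 libraries separated all 5 genotypes, with WT highest, whereas CESA7 overlapped between atbmi1ab_strong and atbmi1b and CESA4 overlapped between atbmi1a and WT.

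On the log2 scale CESA4 fell in atbmi1abc by 1.77 ± 0.13 (adjusted p = 7.29e-06) and CESA7 by 1.81 ± 0.17 (adjusted p = 3.12e-05), each against WT in limma. CESA8 fell by 2.49 ± 0.11 (adjusted p = 6.52e-07). As untransformed FPKM, the atbmi1abc mean was 18.8% of the WT mean for CESA4 and 11.4% for CESA7. CESA8 rested on about 1.0 and 1.9 fragments in the atbmi1abc libraries, so no ratio to WT is given for it. Between atbmi1ab_strong and WT, CESA4 fell by 0.43 ± 0.13 (adjusted p = 0.0201) and CESA8 by 0.48 ± 0.11 (adjusted p = 0.00683) in limma. CESA7 was at -0.28 ± 0.17, with an adjusted p of 0.186. The CESA4 call in the double mutant was lost without WT replicate 1 (adjusted p = 0.0885) and without atbmi1ab_strong replicate 1 (adjusted p = 0.0928). In atbmi1b and atbmi1a no CESA gene was called against WT, with log2 fold changes between -0.29 and 0.25. The coding sequences of the 3 genes were 69.5% to 70.7% identical.

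The proteases XCP1 and XCP2 were the most abundant members outside the triple mutant. In it they had the largest changes in log2(FPKM + 1) of the 6 tested members. That scale shrinks changes of low genes, so this order does not rank the members by relative fall. XCP1 (AT4G35350, chromosome 4, 16810482 to 16812077) was at 0.199 and 0.664 FPKM in atbmi1abc, 28.2 and 22.4 in atbmi1ab_strong, 20.1 and 18.4 in atbmi1b and 24.9 and 21.0 in atbmi1a, against 20.0 and 16.1 in WT. XCP2 (AT1G20850, chromosome 1, 7252111 to 7253747) was at 0.316 and 0.634 FPKM in atbmi1abc, 25.8 and 20.8 in atbmi1ab_strong, 35.4 and 34.8 in atbmi1b and 39.8 and 38.2 in atbmi1a, against 41.0 and 33.6 in WT. The double mutant was the highest genotype for XCP1 and the second lowest for XCP2. Its XCP1 libraries overlapped those of atbmi1a and lay above WT, while its XCP2 libraries lay below WT and both single mutants.

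XCP1 fell in atbmi1abc by 3.75 ± 0.20 on the log2 scale (adjusted p = 1.17e-06) against WT in limma, and the log2 fold change of XCP2 was -4.70 ± 0.15 (adjusted p = 1.31e-07). The atbmi1abc means were 2.39% of the WT mean for XCP1 and 1.27% for XCP2, and rested on about 3.0 and 7.9 fragments for XCP1 and 5.0 and 7.9 for XCP2. XCP2 also fell in atbmi1ab_strong against WT, by 0.66 ± 0.15 (adjusted p = 0.00571). XCP1 in atbmi1ab_strong was at 0.46 ± 0.20, with an adjusted p of 0.0691, which passed the threshold when the libraries were rescaled (adjusted p = 0.0479), when only the 2 genotypes entered the fit (adjusted p = 0.0439) or without an atbmi1abc library (adjusted p = 0.041 without replicate 1 and 0.0413 without replicate 2). Neither protease gene was called in atbmi1b or atbmi1a against WT. Their coding sequences were 73.0% identical, with a longest shared run of 23 bases.

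Counted over comparisons, the 6 members with a mean of at least 1 FPKM were MYB46, CESA4, CESA7, CESA8, XCP1 and XCP2. The members were chosen with earlier results of these data known, so the counts do not come from a blind choice. In atbmi1abc against WT 6 of the 6 were lower, in a comparison where 37.7% of the 19460 tested loci were lower and 36.3% higher. The median log2 fold change of the 6 was -2.15, against -0.0045 over all tested loci. In atbmi1ab_strong against WT 1 was higher (MYB46) and 3 were lower (CESA4, CESA8 and XCP2), where 31.8% of loci were higher and 32.6% lower. In atbmi1b against WT 1 was called, MYB46, which was higher, where 21.3% of loci were higher and 24.1% lower. At an unadjusted p under 0.05 there were 2 (MYB46 and CESA8), against 53.1% of loci. In atbmi1a against WT 0 were called in limma, and 1 (MYB46) had an unadjusted p under 0.05, against 46.5% of loci. At the adjusted threshold 17% of loci were higher and 18.4% lower. These 4 comparisons share the WT libraries. The counts in the single mutants were thus at or under the shares of all loci.

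The triple mutant was also compared with the strong double mutant directly. In atbmi1abc against atbmi1ab_strong 6 of the 6 tested members were lower, where 25.2% of loci were lower and 32.1% higher. MYB46 fell by 1.42 ± 0.14 (adjusted p = 0.000125), CESA4 by 1.34 ± 0.13 (adjusted p = 0.000115) and CESA7 by 1.53 ± 0.17 (adjusted p = 0.000241) on the log2 scale. CESA8 fell by 2.01 ± 0.11 (adjusted p = 7.82e-06), and the proteases had log2 fold changes of -4.21 ± 0.20 for XCP1 (adjusted p = 2.87e-06) and -4.04 ± 0.15 for XCP2 (adjusted p = 1.01e-06) in limma. The median over all loci in this comparison was 0.10, and rescaling the libraries brought it to 0.00 without changing a member's call. An F test for any difference among the 5 genotypes called 6 of the 6, where 89.2% of loci were called.

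**Figure D2:**
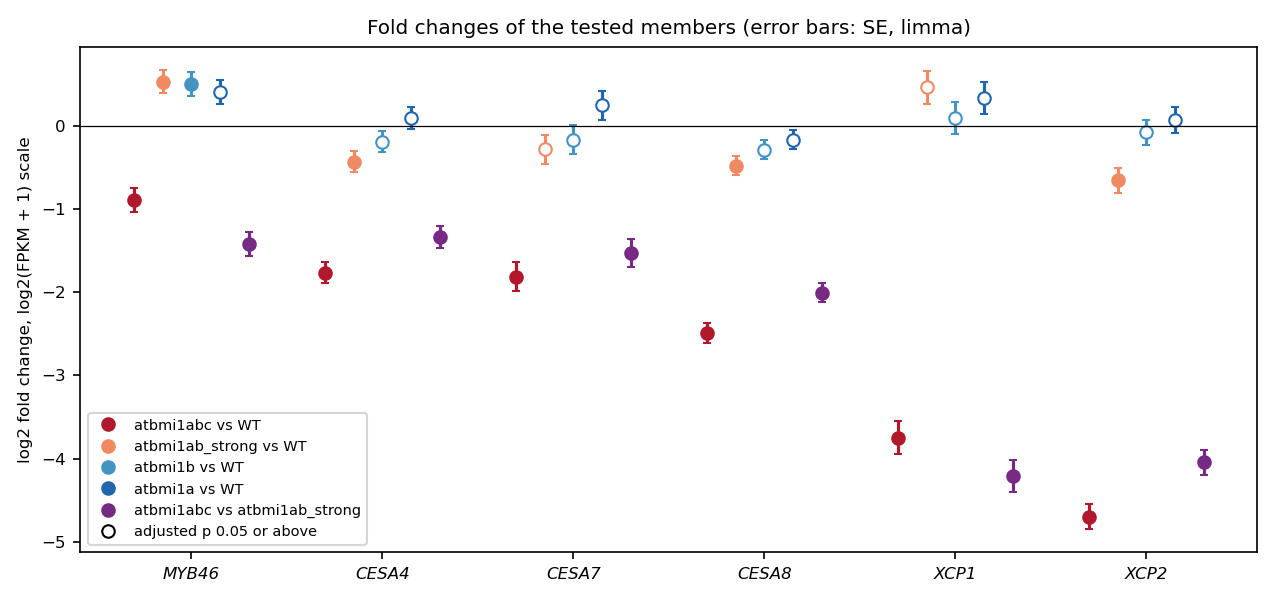
Log2 fold change on the log2(FPKM + 1) scale (vertical axis) of the 6 tested members in atbmi1abc, atbmi1ab_strong, atbmi1b and atbmi1a, each against WT, and in atbmi1abc against atbmi1ab_strong; error bars are SE from limma and open points have an adjusted p of 0.05 or above. The atbmi1abc points run from -0.89 for MYB46 to -4.70 for XCP2, while no other comparison with WT passes 0.66 in size. The scale shrinks changes of low genes, so the points do not rank genes by relative change.

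Ratios within a library do not depend on how libraries were scaled, and they showed that the members did not fall to the same extent. CESA4 made up 76.4% and 66.5% of the summed FPKM of CESA4, CESA7 and CESA8 in the atbmi1abc libraries, against 42.9% and 42.0% in WT. CESA8 made up 1.53% and 2.89% in atbmi1abc, against 31.1% and 30.9% in WT. Those atbmi1abc shares rest on about 1.0 and 1.9 CESA8 fragments, so their size is uncertain. In the other 3 mutants the shares lay near those of WT, from 40.7% to 43.8% for CESA4 and from 23.2% to 30.1% for CESA8. The sum of XCP1 and XCP2 was 0.34 and 0.647 times the CESA sum in atbmi1abc, against 3.82 and 3.25 times in WT. XCP1 was 1.09 and 1.07 times XCP2 in atbmi1ab_strong, against 0.488 and 0.479 times in WT. That ratio was 0.567 and 0.528 in atbmi1b and 0.626 and 0.549 in atbmi1a, so the double mutant lay apart from WT and both single mutants. In atbmi1abc it was 0.628 and 1.05, on the few fragments given above. These ratios were not tested: with 2 libraries a group, an exact permutation test cannot go below 0.333.

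**Figure D3:**
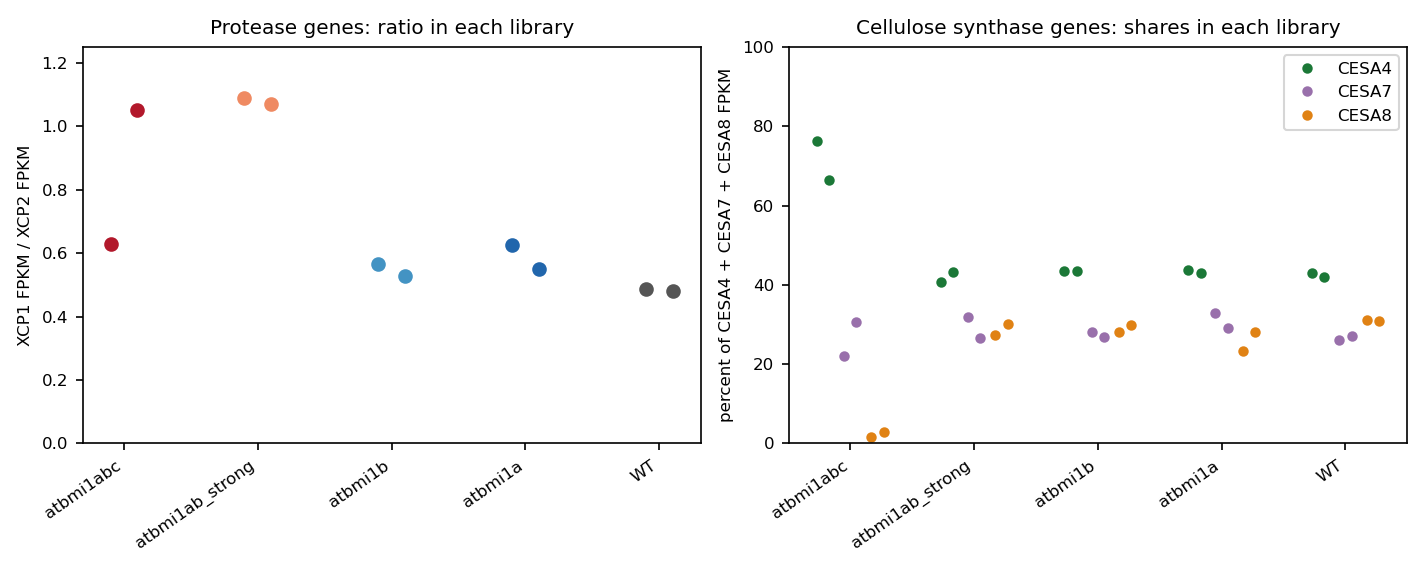
Left, XCP1 FPKM divided by XCP2 FPKM in each library; right, the percentage of the summed CESA4, CESA7 and CESA8 FPKM that each gene makes up, in the libraries labelled atbmi1abc, atbmi1ab_strong, atbmi1b, atbmi1a and WT; points are libraries. The double mutant stands near 1.1 on the left, and only the atbmi1abc libraries depart from the common CESA shares on the right, with CESA4 at 66.5% or more and CESA8 at 2.89% or less. CESA8 rests there on about 1.0 and 1.9 fragments.

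Genes that work beside the members in the wall were mostly lower in the triple mutant. Of the 7 genes tied to secondary walls, 7 were lower in atbmi1abc and 3 in atbmi1ab_strong, each against WT. The shares of all tested loci that were lower were 37.7% and 32.6%. Medians of the list were -1.96 and -0.56 on the log2 scale, where the medians over all tested loci were -0.0045 and 0.0014. TED6, a membrane protein of forming vessels that binds the CESA complex, was at 0.204 and 0.257 FPKM in atbmi1abc and 14.5 and 10.4 in atbmi1ab_strong, against 30.8 and 22 in WT. Its log2 fold changes against WT were -4.46 ± 0.19 (adjusted p = 4.3e-07) in atbmi1abc and -1.02 ± 0.19 (adjusted p = 0.00183) in atbmi1ab_strong, in limma. Its relative TED7 fell by 2.93 and 0.85, and the arabinogalactan protein gene FLA12 by 1.20 and 1.18, in the same pair of comparisons. MAP70-5, which binds microtubules that shape vessel walls, fell in atbmi1abc by 1.83 and was not called in atbmi1ab_strong (-0.25). COBL4, which acts in cellulose deposition and is named here after its values were seen, was listed at 0 in both atbmi1abc libraries.

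The other regulators of the wall did not move as a block. Of 25 regulators 15 were tested, and 3 were higher and 8 lower in atbmi1abc against WT (median -1.16). In atbmi1ab_strong against WT 5 were higher and 1 lower (median -0.10). Among all tested loci 36.3% were higher and 37.7% lower in atbmi1abc, and 31.8% and 32.6% in atbmi1ab_strong. XND1, a NAC factor that restrains xylem formation, was at 12.5 and 14.4 FPKM in atbmi1abc and 9.77 and 10.3 in atbmi1ab_strong, against 1.16 and 1.56 in WT. Its log2 fold changes were 2.62 ± 0.20 (adjusted p = 7.76e-06) and 2.23 ± 0.20 (adjusted p = 2.96e-05) in limma. VNI2, a NAC factor that binds and inhibits VND7, averaged 6.72 ± 2.34 FPKM in atbmi1abc and 55.9 ± 12.5 in atbmi1ab_strong, against 98.6 ± 2.35 in WT (SD, n = 2 each). It fell by 3.72 in atbmi1abc and by 0.83 in atbmi1ab_strong, the second of these not called without WT replicate 1, WT replicate 2 or atbmi1ab_strong replicate 1, when the count of lower regulators was 0. The lignin regulators MYB58 and MYB63 rose in both, MYB58 by 3.17 in atbmi1abc and 2.65 in atbmi1ab_strong and MYB63 by 0.58 and 1.58. KNAT7, a homeodomain factor acting downstream of MYB46, fell by 2.01 in atbmi1abc and rose by 1.16 in atbmi1ab_strong. In levels it was at 0.559 and 0.935 FPKM in atbmi1abc and 12.9 and 16.4 in atbmi1ab_strong, against 6.06 and 5.92 in WT. MYB83, the partner of MYB46, was listed at 0 in both atbmi1abc libraries, as were MYB103, MYB42, MYB54 and MYB69. NST2 was listed at 0 in the other 8 libraries and was at 1.01 and 1.27 FPKM in atbmi1abc. These last 6 genes were below the minimum and are named after their values were seen.

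Xylan genes gave mixed calls. Of 15 tested, 2 were higher and 7 lower in atbmi1abc against WT (median -0.34). In atbmi1ab_strong against WT 5 were higher and 1 lower (median 0.01). Over all tested loci 36.3% were higher and 37.7% lower in atbmi1abc, and 31.8% and 32.6% in atbmi1ab_strong. The xylan counts were not tested against these shares. FRA8, a glycosyltransferase needed for xylan, was at 0.0491 FPKM and listed at 0 in the atbmi1abc libraries and was at 8.08 and 7.66 in atbmi1ab_strong, against 10.9 and 14.8 in WT, and fell by 3.74 ± 0.27 in atbmi1abc (adjusted p = 6.05e-06, limma). IRX9, another glycosyltransferase of xylan synthesis, was listed at 0 in both atbmi1abc libraries and was at 2.53 and 2.12 FPKM in atbmi1ab_strong, against 2.27 and 2.35 in WT. GXMT1, which methylates xylan side groups, fell by 1.91 in atbmi1abc. IRX15L, needed for xylan length, fell by 1.37 in atbmi1abc and rose by 1.51 in atbmi1ab_strong. PARVUS and IRX8, which make the end structure of the xylan chain, rose by 0.75 and 0.55 in atbmi1ab_strong, in that order. The 5 higher calls in atbmi1ab_strong depended on single libraries, with 3 left without WT replicate 1, 2 without WT replicate 2, 1 without atbmi1ab_strong replicate 1 and 2 without atbmi1ab_strong replicate 2. The 2 higher calls in atbmi1abc became 1 with either WT library, either atbmi1b library or atbmi1abc replicate 1 left out.

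Lignin genes moved both ways in the triple mutant. Of 18 tested, 11 were higher and 4 lower in atbmi1abc against WT (median 0.97). Against WT, 15 were higher in atbmi1ab_strong (median 1.37), 13 in atbmi1b (median 1.07) and 9 in atbmi1a (median 0.46). Among all tested loci 36.3% were higher and 37.7% lower in atbmi1abc. The shares that were higher were 31.8% in atbmi1ab_strong, 21.3% in atbmi1b and 17% in atbmi1a. The 4 lower genes in atbmi1abc were CAD5 and the laccases LAC4, LAC11 and LAC17, which couple lignin units in the wall. LAC4 was at 0.116 and 0.29 FPKM in atbmi1abc and 7.98 and 7.54 in atbmi1ab_strong, against 11.8 and 9.79 in WT, and fell by 3.29 ± 0.16 in atbmi1abc (adjusted p = 9.47e-07, limma). The 11 higher genes all encode enzymes that make lignin units and also feed other phenolics. PAL1, the entry enzyme of the pathway, was at 361 and 323 FPKM in atbmi1abc, 396 and 382 in atbmi1ab_strong, 251 and 247 in atbmi1b and 117 and 78.0 in atbmi1a, against 56.2 and 52.2 in WT. PAL4 rose by 2.66 in atbmi1abc and 2.09 in atbmi1ab_strong, and CSE by 1.90 and 1.41. HCT was at 207 and 208 FPKM in atbmi1abc and 205 and 214 in atbmi1ab_strong, against 74.9 and 75.4 in WT. The 9 higher genes in atbmi1a became 3 without WT replicate 2 and 14 without atbmi1a replicate 2, and in atbmi1ab_strong 1 lignin gene was called lower with either atbmi1a library left out. With the single mutants in place of WT, 7 lignin genes were higher and 8 lower in atbmi1abc.

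Cell death genes, primary wall genes and early vascular genes were counted in the same way. The shares of all tested loci were 36.3% higher and 37.7% lower in atbmi1abc, and 31.8% and 32.6% in atbmi1ab_strong. They were 21.3% and 24.1% in atbmi1b and 17% and 18.4% in atbmi1a. The counts were not tested against these shares. Of 4 genes of vessel cell death, 3 were lower in atbmi1abc and 2 in atbmi1ab_strong, each against WT (medians -0.81 and -0.40). The nuclease gene BFN1 fell by 1.46 in atbmi1abc, and the metacaspase gene MC9 fell by 1.09 in atbmi1abc and 1.01 in atbmi1ab_strong. XSP1, a xylem subtilase gene that the files merge with a neighbouring locus, fell by 0.52 and 0.54. Without WT replicate 1, 1 gene of this list was called higher in each comparison. In the single mutants 2 of the 4 were lower in atbmi1b (median -0.51) and 2 in atbmi1a (median -0.47), each against WT. MC9 averaged 5.53 FPKM in atbmi1abc, 5.95 in atbmi1ab_strong, 5.70 in atbmi1b and 6.05 in atbmi1a, against 12.9 in WT. Of 9 tested genes of primary wall cellulose, 3 were higher and 5 lower in atbmi1abc (median -0.60) and 3 were higher and 3 lower in atbmi1ab_strong (median -0.33). CESA9 rose by 3.61 in atbmi1abc and 2.30 in atbmi1ab_strong. CESA5 was at 31.7 and 34.0 FPKM in atbmi1abc and 50.4 and 49.4 in atbmi1ab_strong, against 15.4 and 13.7 in WT, whereas the endoglucanase gene KOR1 fell by 1.49 and 0.84 and COB fell by 1.69 in atbmi1abc. The 3 lower genes in atbmi1ab_strong became 1 with WT replicate 1 or either atbmi1ab_strong library left out, and 5 with either atbmi1abc library left out. The single mutants shared these changes against WT: 1 of the 9 was higher and 6 lower in atbmi1b (median -0.79). The counts were the same in atbmi1a (median -0.72). In atbmi1b KOR1 fell by 0.95 and CESA5 rose by 1.62. Of 16 procambium and early vascular genes, 7 were higher and 7 lower in atbmi1abc (median 0.13) and 8 were higher and 4 lower in atbmi1ab_strong (median 0.25, and 2 lower without atbmi1ab_strong replicate 1). ACL5, whose product thermospermine delays vessel maturation, fell by 2.54 and 1.95, while LOG4, a cytokinin-activating enzyme gene, rose by 3.34 and 3.13. CLE41, a peptide gene that holds back xylem formation, was at 36.1 and 42.2 FPKM in atbmi1abc and 63.2 and 62.1 in atbmi1ab_strong, against 15.1 and 14.6 in WT. Of this list 5 genes were higher and 3 lower in atbmi1b (median 0.26), and 4 higher and 1 lower in atbmi1a (median 0.10). ACL5 fell by 1.64 and CLE41 rose by 1.20 in atbmi1b.

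Set directly against the double mutant, the triple mutant had lower calls in each of these wall lists, in a comparison where 25.2% of all tested loci were lower and 32.1% higher. In atbmi1abc against atbmi1ab_strong 6 of the 7 genes tied to secondary walls were lower (median -1.73), FLA12 being the exception at -0.02. Of the tested regulators 10 of 15 were lower and 1 higher (median -1.03), with KNAT7 at -3.17 ± 0.18 (adjusted p = 6.7e-06, limma) and VNI2 at -2.90. Of the xylan genes 6 of 15 were lower and 1 higher (median -0.41), and FRA8 was at -3.11. In the cell death list 1 of 4 was lower (median -0.03), close to the share of all loci. Of the lignin genes 7 of 18 were lower and 3 higher (median -0.23), with LAC4 at -2.87 and PAL4 at 0.57. Lower calls were not confined to these lists. Of the tested phloem genes 6 of 9 were lower and 1 higher (median -0.70). Of the primary wall cellulose genes 5 of 9 were lower and 1 higher (median -0.37), and of the procambium and early vascular genes 7 of 16 were lower and 3 higher (median -0.23). The median over all loci in this comparison was 0.10, as given above. XND1 (0.39, adjusted p = 0.125) and MYB58 (0.52, adjusted p = 0.173) were not called between the 2 mutants in limma.

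Markers of other cell types moved in the same libraries, where many loci were called against WT. In atbmi1abc 36.3% of all tested loci were higher and 37.7% lower, and in atbmi1ab_strong 31.8% and 32.6%. Of 12 phloem markers 9 were tested, and 1 was higher and 7 lower in atbmi1abc (median -1.32) and 1 was higher and 6 lower in atbmi1ab_strong (median -0.73), each against WT. The phloem list summed to 70.5 and 91.7 FPKM in atbmi1abc, 156 and 172 in atbmi1ab_strong, 155 and 182 in atbmi1b and 205 and 198 in atbmi1a, against 270 and 272 in WT, and no phloem marker was listed at 0 in both libraries of a genotype. Most of the WT sum came from PP2-A1 and SUC2, which averaged 135.9 and 82.1 FPKM there. The phloem gene PP2-A1 fell by 3.49 and 1.69, SEOR1 by 3.05 and 0.73, the phloem regulator APL by 2.04 and 1.01 and CVP2 by 1.32 and 1.16. CALS7 was the gene called higher, by 1.36 and 0.80. SUC2 fell by 0.66 in atbmi1abc and was not called in atbmi1ab_strong (0.04). CALS7 and SUC2 are named after their values were seen. The count of higher phloem genes in atbmi1ab_strong became 2 with any atbmi1a or atbmi1abc library left out. Of the 10 photosynthesis markers 10 were lower in atbmi1abc and 10 in atbmi1ab_strong. LHCA4, which binds antenna chlorophyll, had log2 fold changes of -5.62 and -5.68 and PSBO1, of photosystem II, -4.28 and -4.54. PSAD1, of photosystem I, was at -4.40 and -4.75, and RBCS2B, which has near-identical copies that make its value uncertain, at -7.55 and -8.40. Of the 9 storage genes 9 were higher in atbmi1abc and 7 in atbmi1ab_strong, where CRU3 and CRA1 were listed at 0 in both libraries. The cruciferin gene CRU2 rose by 10.33 and 11.26 and the oleosin gene OLEO2 by 10.64 and 10.56. The albumin genes SESA1 (9.54 and 10.92) and SESA3 (10.66 and 11.12) lie among similar copies, so their values are uncertain. The part of these cell types in the members' values was not tested. The share of the FPKM total that storage genes took was 12.1% and 13.9% in atbmi1abc and 9.77% and 11.7% in atbmi1ab_strong, against 0.348% in atbmi1a replicate 1 and at most 0.00967% in the other single mutant and WT libraries. CRU3 and CRA1 averaged 21380 and 25380 FPKM in atbmi1abc and add nothing to the atbmi1ab_strong shares. The shares therefore do not rank atbmi1abc against atbmi1ab_strong.

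**Figure D4:**
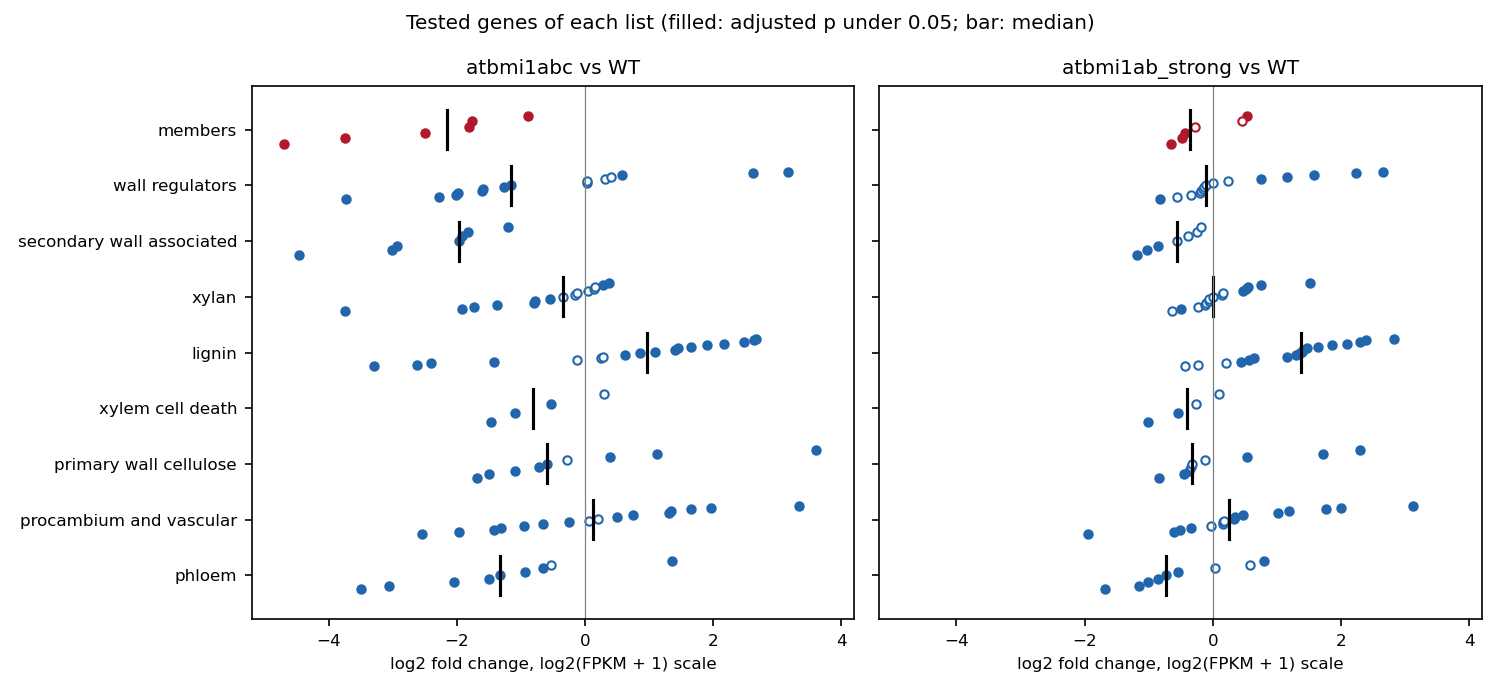
Log2 fold change on the log2(FPKM + 1) scale (horizontal axis) of each tested gene in the members and 8 wider lists (rows), in atbmi1abc against WT on the left and atbmi1ab_strong against WT on the right; filled points have an adjusted p under 0.05 and bars are medians. The 6 tested members have a median of -2.15 on the left and -0.36 on the right, and the lignin row has its median above 0 in both panels.

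The genes whose level followed the members most closely were ranked by Pearson correlation over the 10 libraries on log2(FPKM + 1), given as a description. For the mean standardised profile of CESA4, CESA7 and CESA8 the 5 named loci of highest correlation were SEOR1 (0.994), CYP83A1 (0.993), SCPL51 (0.993), PIP2B (0.993) and TPPH (0.992). SEOR1 builds filaments in phloem sieve elements, CYP83A1 acts in glucosinolate synthesis, and PIP2B is a plasma membrane aquaporin. For XCP1 with XCP2 they were IMD1 (0.996), LAC17 (0.995), XBCP3 (0.995), IPMI2 (0.995) and AGP13 (0.994). LAC17 is a laccase of lignin formation, XBCP3 is a cysteine protease, and IMD1 and IPMI2 act in leucine and glucosinolate synthesis. PIP2B, for example, was at 3.81 and 6.43 FPKM in atbmi1abc and 212 and 215 in atbmi1ab_strong, against 363 and 444 in WT, and LAC17 was at 0.608 and 0.761 in atbmi1abc and 7.25 and 5.88 in atbmi1ab_strong, against 8.19 and 7.56 in WT. Each of these 10 genes was lower in both atbmi1abc libraries than in the other 8, and the points share genotypes pairwise.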

How the data were processed

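Total RNA of seedlings was made into Illumina libraries after a Qiagen column extraction, per the labels' protocols. The deposited files hold 1 FPKM value per locus, made by the authors with FastQC, TopHat, Cufflinks and Cuffdiff on TAIR10, per the submitters' processing notes. Versions and settings: not given in the sources used here. FPKM as the unit follows from those tools and the values. Values summed to 792416 to 990295 per library. Read counts were not among the files used here. The smallest FPKM steps put depth at about 10660000 to 17692000 fragments per library. This is a rough estimate, since 34.4% to 42.4% of low values fell within 0.1 of a whole fragment.

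Samples were grouped by title and genotype label. One limma model (version 3.58.1, R 4.3.3, empirical Bayes with trend) was fitted to log2(FPKM + 1) of all 10 libraries, with 5 groups (5 residual degrees of freedom). Tested were the 19460 loci averaging 1 FPKM or more. Of the members 6 passed and 4 (VND6, VND7, SND1 and NST1) did not. P-values were Benjamini-Hochberg adjusted over all tested loci and called under 0.05. Alternatives were median-of-ratios scaling, no minimum, a minimum of 5, a pseudocount of 0.1, only the groups compared, the single mutants in place of WT, a replicate block and leaving out each library. The fitting steps were tested on simulated data.

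The members and the 10 wider lists (126 genes) were chosen with earlier results of these data known. Named genes were the members, up to 3 called genes of smallest adjusted p per list in the triple and in the double mutant against WT, and the 5 loci with a symbol closest in profile to the CESA and to the XCP genes. The files hold 270 entries that merge neighbouring loci, XSP1 among them. Promoters and gene positions were read from the RefSeq release of TAIR10.1. Python 3.11.15, pandas 2.3.3, Biopython 1.88 and matplotlib 3.10.9 were used.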

Additional observations from a re-analysis of the deposited data

How the results depend on the processing

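The 6 tested members kept their direction and their call under all 99 alternative values in atbmi1abc against WT and all 93 in atbmi1abc against atbmi1ab_strong, where a minimum mean of 5 FPKM left 3 members to test (CESA4, XCP1 and XCP2) and so gave counts of 3 lower in both and 3 in the F test. In atbmi1ab_strong against WT 89 of 99 did so. There the count of higher members, 1 in the fit reported, was 2 under median-of-ratios scaling, 2 with only the groups compared and 2 with no minimum (there VND7 joined MYB46), 0 with a minimum of 5 and 0 with the single mutants in place of WT, and 0 to 2 when single libraries were left out. With the single mutants in place of WT, MYB46 (adjusted p = 0.601) and CESA8 (adjusted p = 0.0522) lost their calls in limma. In atbmi1b against WT the count of higher members was 0 with a minimum of 5, where MYB46 was not tested, and 0 to 1 without single libraries. In atbmi1a against WT it was 1 with no minimum (MYB46, adjusted p = 0.0282). Over all loci in atbmi1a against WT, 1366 were higher and 1685 lower with only the groups compared, and 1725 to 3250 were higher and 2077 to 3466 lower without single libraries. The members whose sign turned were not called in any of these fits: XCP1 in atbmi1b ran from -0.056 (without WT replicate 2) to 0.24, XCP2 in atbmi1b from -0.22 to 0.062 (without WT replicate 1), CESA4 in atbmi1a from -0.044 (without atbmi1a replicate 1) to 0.24 and XCP2 in atbmi1a from -0.071 (without WT replicate 2) to 0.21. The cause of these changes was not tested beyond the genes that a minimum removed. Same-numbered libraries of different genotypes showed no sign of deviating together (correlations of deviations from -0.23 to 0.12). This cannot establish how the libraries were made, since the labels name no batch. A replicate block changed no member's call and gave 7014 higher and 7277 lower loci in atbmi1abc against WT. With no minimum 6 wall regulators were higher and 15 lower in atbmi1abc against WT, against 3 and 8 in the fit reported. No group was large enough for a test of outlying libraries. By estimate, SND1 and NST1 rested on 0 to 1.9 fragments in every library, CESA8 and MYB46 on 1.0 to 1.9 in atbmi1abc, and VND6 and VND7 on 0 to 1.1 in atbmi1abc, with at most 27.6 (VND6) and 20.0 (VND7) in any other library.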
